A study of Mus musculus with 45 samples.

Results

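The effect of the histone mutation H3.3 K36M on the transcripts of fully grown oocytes (FGOs) was examined by gene function, gene family and expression level. All libraries labelled as FGO in the deposited expression table entered the comparison: 6 of its 22 libraries, in a series of 45 samples, with 3 control and 3 K36M libraries. Control FGOs carried the floxed allele H3f3b K36M-flox/+ without Cre, and K36M FGOs carried the same allele together with Gdf9-Cre, which is driven by an oocyte-specific promoter. Both groups therefore share the floxed allele, and because Cre is present in the K36M group alone, Cre and the mutant histone cannot be told apart. The FGOs came from females 3 to 4 weeks old, labelled as a hybrid of C57BL/6 and 129, and each library pooled 5 FGOs. Expression is given as TPM, a length-corrected relative abundance within a library, so a lower TPM cannot be separated from a change in the rest of the transcriptome, the RNA content of an oocyte was not measured, and TPM does not carry the number of reads behind a gene.

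H3.3 is the histone H3 variant that is deposited outside DNA replication, and in the mouse it is encoded by H3f3a and H3f3b. When lysine 36 of H3 is replaced by methionine, the mutant histone interferes with the enzymes that methylate this residue, and in oocytes H3K36 methylation guides where DNA methylation is laid down. A fully grown oocyte is transcriptionally silent or nearly so, and its RNA is the store that was made during growth. Part of that store comes from gene families which are active in few other cells and of which some lie side by side as similar copies, among them Fbxw, Oas1 and Pramel genes.

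The libraries were similar in complexity, with 13218 to 14131 genes at a TPM of at least 1 and 16.8% to 18.5% of the TPM in the 100 most abundant genes. Oocyte markers were abundant in every library, with Gdf9, an oocyte growth factor, at a TPM of 4625 to 5082. The summed TPM of 10 oocyte markers was 21234, 20988 and 20888 in controls and 20297, 18992 and 19053 in K36M FGOs, every K36M library below every control, and 5 of the 10 were lower and none higher by the unadjusted test described next. The summed TPM of 14 granulosa and cumulus cell markers was 80.2 to 105.2 in controls and 84.5 to 103.6 in K36M FGOs. A wider list of 30 such markers summed to 423 to 460 in controls and 389 to 494 in K36M FGOs. Of those 14 markers Ptx3 and Lhcgr were below a TPM of 0.4 in every library, whereas Gja1 and Cyp19a1, which were the highest, were at 16.2 to 32.0. Among the other markers of follicular and blood cells, Hba-a1 and Adgre1 were listed at 0 throughout, and only Myh11 and Pecam1 exceeded a TPM of 4 in any library. Myh11, a smooth muscle myosin, was at a TPM of 188, 188 and 180 in controls and 198, 173 and 171 in K36M FGOs, with overlapping groups, and Pecam1, an endothelial adhesion molecule, at 65.6, 65.7 and 64.0 in controls and 58.7, 61.7 and 53.0 in K36M FGOs, each K36M library below each control. The part of other cells in the counts below was not tested. K36M replicate 1 stood closest to the controls: 51.7% of the tested genes lay outside the range of the 3 controls in that library, against 63.3% in replicate 2 and 63.7% in replicate 3.

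Differences were tested with limma on log2(TPM + 1) for 13775 genes, those whose TPM averaged at least 1 across the 6 libraries. After Benjamini-Hochberg adjustment 1 gene passed 0.05 (0.00726% of the genes tested). It was Cdo1 on chromosome 18 (46713193 to 46728502), which encodes cysteine dioxygenase, the enzyme that commits cysteine to taurine and sulfate. Cdo1 had a TPM of 239.9, 239 and 261 in the controls and 109, 75.5 and 102 in K36M FGOs. The groups did not overlap, and the gene fell by 1.38 on the log2 scale (standard error 0.13, limma adjusted p = 0.0465). This call was lost, with limma adjusted p of 0.0504 to 0.354, with a pseudocount of 0.1, with all genes above 0, with no mean-variance trend, with the replicate number as a block (alone or with GC centring), and without any 1 control or K36M replicate 3, while the log2 fold change stayed between -1.50 and -1.22. No other gene reached that threshold, so all counts of gene groups below are counts of genes with an unadjusted limma p under 0.05 and describe the groups without testing them. At that unadjusted level 5.15% of all tested genes were higher in K36M FGOs (710 genes) and 5.34% were lower (736 genes), so 10.5% differed in either direction. The median log2 fold change was 0.01, and these shares are the background for each gene group. Because the labels do not say that the pools came from separate animals, the p-values measure the spread between these libraries, which may be technical. The K36M libraries lay wholly above the controls in 7.46% of the tested genes and wholly below them in 8.17%, together 15.6%.

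The background moved with the settings, which matters for the counts quoted later from other fits. When the moderated variance of each gene was not tied to its expression level (no mean-variance trend), 3.92% of the tested genes were higher and 5.12% lower. Without K36M replicate 1 the shares were 11.9% and 8.48%, and 2.17% of the genes passed an adjusted p of 0.05. That library stood closest to the controls, so leaving it out tends to widen the difference between the groups. Values from that fit are given to show the dependence on 1 library and not as support. Without control replicate 3 the shares were 3.56% and 3.38%, and after centring each library on its trend with GC content 4.72% and 5.43%. With genes averaging a TPM of at least 5, 5.23% were lower. Without control replicate 1 the shares were 3.26% higher and 3.79% lower, without control replicate 2 they were 3.7% and 4.53%, without K36M replicate 2 they were 3.46% and 3.9%, and without K36M replicate 3 they were 2.59% and 4.74%.

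The share of lower genes differed with the expression level, and in the fit with a mean-variance trend it was highest among abundant transcripts. Of 273 genes whose TPM averaged 500 or more, which together made up 29.2% of the TPM, 51 were lower (18.7%, against 5.34% of all genes) and 12 higher at an unadjusted p under 0.05, and 179 had a negative log2 fold change. The 3 K36M libraries lay wholly below the controls in 63 of these genes (23.1%) and wholly above them in 15 (5.49%). Among the lower ones were Padi6, Zp2, Zp3, Bmp15 and Dnmt1, whose products build the cytoplasmic lattices, the zona pellucida, the growth factor signal to granulosa cells and maintenance DNA methylation. The higher ones included Zar1, a regulator of stored maternal mRNA, and Ccno, a cyclin-like protein. The size of the shift was small, with a median log2 fold change of -0.07 in this range, and K36M replicate 3 stood furthest from the controls. The median deviation from the mean of the 6 libraries was 0.03, 0.04 and 0.02 in the controls and 0.01, -0.01 and -0.10 in K36M replicates 1 to 3.

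At lower levels the balance differed. Between a TPM of 50 and 100, 175 of 1896 genes were higher (9.23%) and 69 were lower (3.64%). Between 1 and 10, 124 of 5015 were higher (2.47%) and 275 were lower (5.48%). The precision also depended on the level, since the median standard error of the log2 fold change was 0.43 between a TPM of 1 and 2 and 0.08 at 500 and above. These shares depended on the variance model. With no mean-variance trend 16 of the 273 abundant genes were lower (5.86%, against 5.12% of all genes) and 1 was higher, between a TPM of 1 and 10 the counts were 200 higher and 412 lower (8.22%), and between 50 and 100 they were 82 higher and 28 lower. Without K36M replicate 1 there were 387 higher and 171 lower genes between 50 and 100, and 229 higher (4.66%) and 287 lower (5.84%) genes between 1 and 10. At 500 and above the lower count was 27 without control replicate 3, 33 without control replicate 1, 36 without K36M replicate 3 and 76 without K36M replicate 1, and leaving out the oocyte gene families described next left 35 of 239 genes lower.

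**Figure D1:**
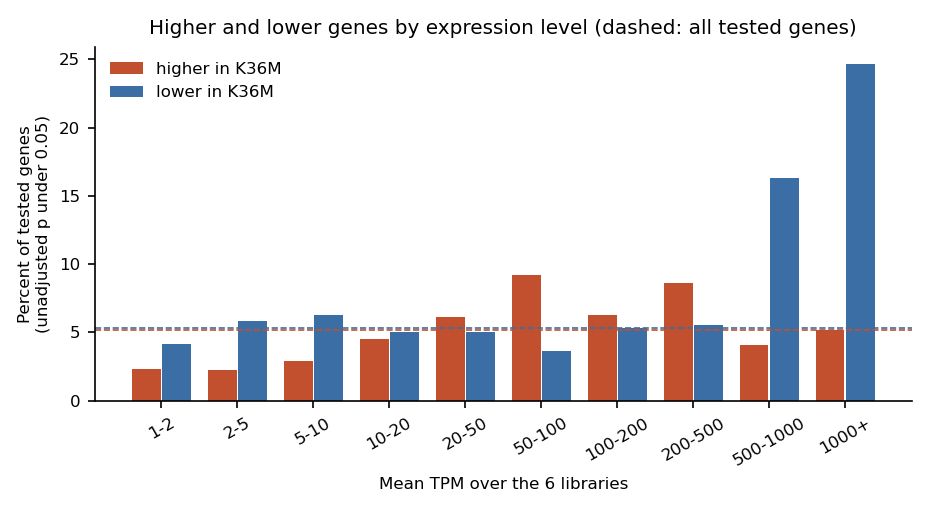
Share of tested genes that were higher (red) or lower (blue) in K36M FGOs at an unadjusted limma p under 0.05, by mean TPM over the 6 libraries; the dashed lines give the shares over all tested genes. The lower share reaches 16.3% between a TPM of 500 and 1000 and 24.7% above 1000, and the higher share is largest, 9.23%, between 50 and 100.

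The Fbxw genes of chromosome 9 had lower mean values in K36M FGOs throughout. Fbxw genes encode F-box proteins with WD40 repeats, the part of an SCF ubiquitin ligase that selects the substrate, and 13 of the family members expressed in oocytes lie side by side on chromosome 9 (109139454 to 109790660 of GRCm38). All 13 were measured at a TPM well above 100, all 13 had a negative log2 fold change (Fbxw21 turned to 0.01 without K36M replicate 2), and 10 of them (76.9%, against 5.34% of all genes) were lower at an unadjusted p under 0.05, with a median log2 fold change of -0.33. Their summed TPM was 8790, 8550 and 9334 in the 3 controls and 8096, 6493 and 6670 in K36M replicates 1 to 3. Every K36M library was below every control, and replicate 1 was nearest to them.

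Within the array the log2 fold changes ranged from -0.79 to -0.13, and differences between members were not tested. Fbxw18 had a TPM of 837, 746 and 978 in controls and 721, 398 and 411 in K36M FGOs, the largest difference of the array on the log2 scale, with a log2 fold change of -0.79 (standard error 0.21, limma adjusted p = 0.346). Its K36M replicates 2 and 3 were close to each other and replicate 1 lay just under the lowest control. Fbxw24, the most abundant member, had a TPM of 1926, 1898 and 2038 in controls and 1717, 1399.5 and 1441 in K36M FGOs, with a log2 fold change of -0.37 (standard error 0.08, limma adjusted p = 0.306). Here too the groups did not overlap. Fbxw28 had a TPM of 867, 845 and 909 in controls and 780.5, 861 and 759 in K36M FGOs, with a log2 fold change of -0.13 (standard error 0.07, limma adjusted p = 0.556). The groups overlapped in Fbxw28, as they did in Fbxw21 and Fbxw22. These genes are similar copies whose transcripts were not compared here, and how reads shared between copies were assigned is not stated. The split of reads between the members is therefore uncertain, while the summed TPM depends less on it.

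The promoters of the array also resemble each other. In RefSeq (GRCm38.p6) 10 of the 13 genes had a promoter sequence, covering the 250 bases before the start site and 50 after it, and the 45 pairwise identities ranged from 64.8% to 96.7% with a median of 85.3%. The stretch from 200 to 51 bases before the start is shown for 5 genes on the minus strand, for the member with the largest log2 difference (Fbxw18, chr9:109702751-109702900), the most abundant member (Fbxw24, chr9:109626110-109626259), the pair with the most similar promoters (Fbxw14, chr9:109287727-109287876, and Fbxw28, chr9:109339710-109339859) and the member with another motif count (Fbxw20, chr9:109234805-109234954). Capitals mark the palindromic E-box CAGCTG, a class of site bound by basic helix-loop-helix transcription factors.
Fbxw18 promoter: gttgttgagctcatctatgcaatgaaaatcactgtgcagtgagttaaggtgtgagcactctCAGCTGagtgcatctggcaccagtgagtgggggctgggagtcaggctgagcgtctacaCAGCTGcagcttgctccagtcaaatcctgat
Fbxw24 promoter: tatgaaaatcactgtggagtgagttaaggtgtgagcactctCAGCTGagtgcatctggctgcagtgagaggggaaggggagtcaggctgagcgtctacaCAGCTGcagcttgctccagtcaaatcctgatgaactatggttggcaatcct
Fbxw14 promoter: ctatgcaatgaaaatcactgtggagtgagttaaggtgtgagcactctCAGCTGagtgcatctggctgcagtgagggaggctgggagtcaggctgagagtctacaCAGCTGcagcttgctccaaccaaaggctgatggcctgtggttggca
Fbxw28 promoter: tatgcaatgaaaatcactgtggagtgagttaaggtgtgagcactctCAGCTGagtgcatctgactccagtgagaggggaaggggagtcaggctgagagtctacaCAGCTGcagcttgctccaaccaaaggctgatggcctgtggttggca
Fbxw20 promoter: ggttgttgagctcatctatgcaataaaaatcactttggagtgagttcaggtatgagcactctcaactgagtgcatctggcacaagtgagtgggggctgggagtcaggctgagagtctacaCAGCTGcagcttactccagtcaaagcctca

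The E-box CAGCTG occurred in all 10 of these promoters, with 2 copies in 9 of them and 1 copy in Fbxw20. In Fbxw18 the copies began 139 and 81 bases before the start site. Fbxw14 and Fbxw28, whose promoters were 96.7% identical, gave a log2 fold change of -0.29 (K36M libraries at 355, 308 and 302, all below the controls at 411, 396 and 369) and of -0.13 respectively, and the difference between these 2 genes was not tested. Fbxw20, with 1 copy, was among the lower members. Over all 27025 genes with a promoter in RefSeq, 18.3% held CAGCTG on either strand, against 13 of 19 genes (68.4%) in the wider list of oocyte clusters that includes Oosp, Omt2 and Oas1 genes. The 10 promoters just counted are part of those 13, and outside them 3 of 9 held it. It was also in 6 of 11 oocyte Nlrp genes and 11 of 18 Pramel and Oog genes. Among zinc finger genes named from Zfp900 upwards, another list with lower members described below, it was in 8 of 45 (17.8%). The other E-box searched, CACGTG, was in 8.09% of all promoters and in none of the 19. CATTTG, of the same general form, was in 15.5% and in 4 of 19, TATAAA in 15.7% and in none, and TAATTG in 9.22% and in 1. In other oocyte lists these motifs were more frequent, with TAATTG in 9 of 18 Pramel and Oog genes and CATTTG in 4 of 9 genes of the subcortical maternal complex. These matches describe the promoters and were not related to the size of the difference.

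**Figure D2:**
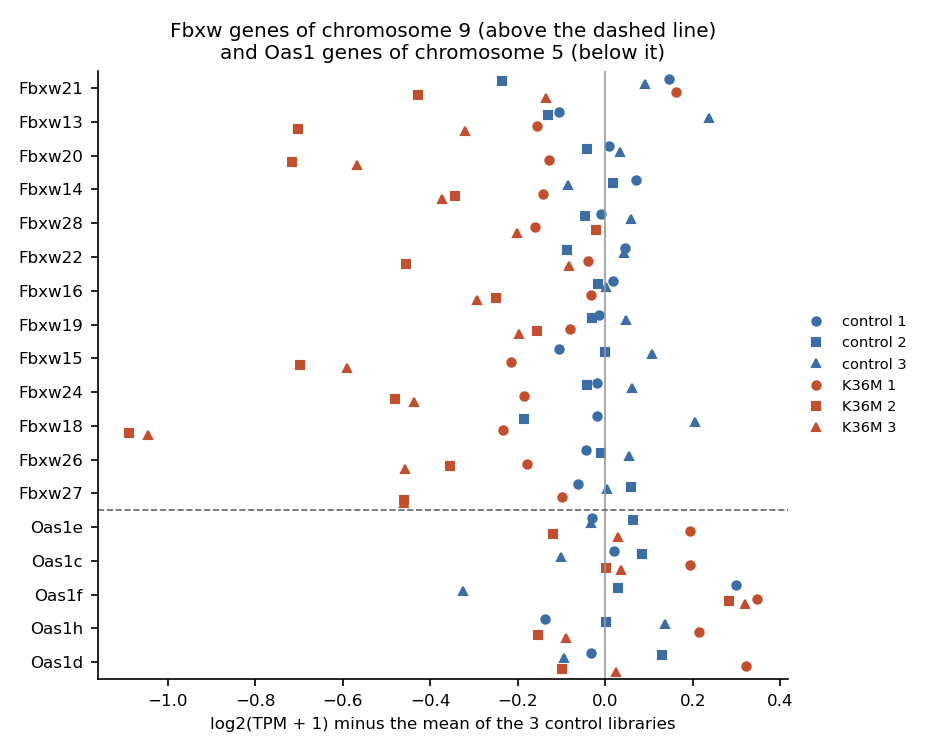
Value of each FGO library, as log2(TPM + 1) minus the mean of the 3 controls, for the 13 Fbxw genes of chromosome 9 in order of position and for the 5 Oas1 genes of chromosome 5 with a TPM above 30 (Oas1g, below 2, is left out) (blue, controls; red, K36M; the shape gives the replicate). In Fbxw18 K36M replicates 2 and 3 lie furthest to the left, whereas the groups overlap in all 5 of the plotted Oas1 genes.

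The other oocyte clusters of the same list lie on other chromosomes or elsewhere on chromosome 9. The Oas1 genes of chromosome 5 (120786312 to 120921648), homologues of an antiviral oligoadenylate synthetase, included none of 6 that was higher or lower at an unadjusted p under 0.05, with a median log2 fold change of 0.08. Oas1e, the most abundant, had a TPM of 1086, 1158 and 1085 in controls and 1269, 1021 and 1131 in K36M FGOs. The K36M values lay on both sides of the controls. Oas1g, at a much lower level and not plotted, had 1.00, 0.610 and 0.0473 in controls and 1.21, 1.68 and 1.55 in K36M FGOs, all above the controls. Of the Oosp genes of chromosome 19, which encode oocyte-secreted proteins, Oosp1 had a TPM of 1789.5, 1702 and 1814 in controls and 1587, 1278 and 1068 in K36M FGOs, with a log2 fold change of -0.45 (standard error 0.12, limma adjusted p = 0.362), while Oosp2 overlapped between the groups. Over the whole list of 25 Oosp, Omt2, Oas1 and Fbxw genes 12 were lower and none was higher. With no mean-variance trend 6 were lower and 1 higher, and without control replicate 3 the lower count was 8. Without K36M replicate 1 the lower count was 13, of which 7 passed an adjusted p of 0.05, in a fit where 2.17% of all genes did. For the chromosome 9 Fbxw genes alone the lower counts were 5, 7 and 11 in the same order, with 6 passing the adjusted threshold in the last.

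Among oocyte Nlrp genes no member was higher and 7 of 13 were lower. These genes encode NLR-family proteins that, unlike their relatives in innate immunity, are restricted to oocytes and early embryos. Of the 13 tested members 12 had a negative log2 fold change, and the median was -0.22. Nlrp5 (MATER), a component of the subcortical maternal complex needed for early cleavage, had a TPM of 1717, 1790.0 and 1908 in controls and 1379, 1526 and 1423 in K36M FGOs. The groups did not overlap, with a log2 fold change of -0.32 (standard error 0.07, limma adjusted p = 0.306). Nlrp14 had 2859, 2892 and 3016 in controls and 2723, 2091 and 2147 in K36M FGOs, with a log2 fold change of -0.34 (standard error 0.10, limma adjusted p = 0.365), and again replicate 1 was nearest to the controls. Nlrp9a, Nlrp9b, Nlrp4a and Nlrp4f were lower too, and Nlrp4c was the member with a positive value (log2 fold change 0.20), its groups overlapping. The list also held Nlrp12, known from innate immunity, which was the seventh lower member at a mean TPM below 5, so that 6 of the 12 members above that level were lower. The lower count was 3 both with no mean-variance trend and without control replicate 3.

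The subcortical maternal complex and its partners, a protein assembly under the oocyte membrane, included 5 lower and no higher members of 9 tested, with a median log2 fold change of -0.15. Of these 5, 3 are Nlrp genes that are also counted above. Padi6, which is required for the cytoplasmic lattices, had a TPM of 3749.7, 4114 and 3916 in controls and 3439, 3504 and 3359 in K36M FGOs, with a log2 fold change of -0.19 (standard error 0.06, limma adjusted p = 0.383). Ooep, an RNA-binding KH-domain protein, had 956, 763 and 960.3 in controls and 837, 639 and 647 in K36M FGOs, so that 1 control lay below K36M replicate 1. The core members Tle6 and Zbed3 overlapped between the groups, and Khdc3, another KH-domain member, had a positive log2 fold change of 0.28 (standard error 0.13, limma adjusted p = 0.485). The lower count was 1 with no mean-variance trend, 2 without control replicate 3 or K36M replicate 3, and 3 without control replicate 1 or 2.

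Pramel and Oog genes, leucine-rich repeat proteins encoded mainly in an array on chromosome 4, included 6 lower and 2 higher members of 22 tested, with a median log2 fold change of -0.17. All 6 lower members belonged to the 15 tested genes of that array (143394441 to 144408467). The K36M libraries lay wholly below the controls in 3 of the 22 genes and wholly above them in 2. The summed TPM of the list was 8053, 7983 and 8023 in controls and 7989, 6362 and 6785 in K36M replicates 1 to 3. Replicate 1 thus lay within the range of the controls. Pramel29 had a TPM of 730.4, 739 and 635 in controls and 585, 482 and 435 in K36M FGOs, with a log2 fold change of -0.49 (standard error 0.11, limma adjusted p = 0.306). In contrast, Pramel12 was at 30.03, 31.7 and 26.4 in controls and 38.03, 42.1 and 40.2 in K36M FGOs, with a log2 fold change of 0.44. Both genes had separate groups. The lower count of the list was 2 with no mean-variance trend, 3 without control replicate 1, control replicate 3, K36M replicate 2 or K36M replicate 3, and 10 without K36M replicate 1. Of the 4 tested Obox homeobox genes Obox7 was lower (log2 fold change -0.51, limma adjusted p = 0.429) with overlapping groups, and without K36M replicate 1 all 4 were. In a list of 9 tested genes, mostly of the zona pellucida and sperm binding, Zp2, Zp3 and the oocyte protease gene Astl were lower. The higher member was Zar1, which is not a coat gene but the regulator of stored mRNA named above. Zp2 had a TPM of 2051, 2017 and 2234 in controls and 1831, 1649.7 and 1755 in K36M FGOs, with a log2 fold change of -0.27, and Astl had 324, 331 and 339 against 279, 222 and 260.3, with a log2 fold change of -0.39. Both had separate groups. Gdf9, in comparison, overlapped between the groups, whereas Bmp15, its paralogue on the X chromosome, had a log2 fold change of -0.28 with separate groups.

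Taking the Oosp, Omt2, Oas1 and Fbxw, Nlrp, Pramel and Oog, subcortical maternal complex and Obox lists as 1 set of 69 tested genes, 28 were lower (40.6%) and 2 higher. Their summed share of the TPM was 5.33%, 5.44% and 5.42% in controls and 5.29%, 4.49% and 4.55% in K36M replicates 1 to 3. The lower count ranged from 11 to 36 over the alternatives, and the median log2 fold change stayed between -0.25 and -0.12. The lists were chosen with earlier results of these data known, so the share of lower genes in the set follows in part from that choice. The zona pellucida and sperm binding list was not joined to the set, with 3 lower and 1 higher of 9 and a median of -0.15. Also not joined as lists, although lists partly overlap in members, were 2 oocyte lists whose counts lay nearer the background. Growth factors and Kit had 1 lower and no higher of 13 and a median of 0.03. Other oocyte transcripts had 4 lower and 2 higher of 36 and a median of -0.04.

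Zinc finger genes with names from Zfp900 upwards, most of which encode KRAB-type repressors in young arrays on several chromosomes, were expressed at low levels. Of 52 tested genes 46 had a negative log2 fold change, 13 were lower and 1 was higher, with a median of -0.16. The other Zfp genes had a median of 0.06, with 16 higher and 15 lower of 258. Zfp979 on chromosome 4 had a TPM of 216, 182 and 214 in controls and 151, 150.1 and 134 in K36M FGOs, with a log2 fold change of -0.49 (standard error 0.10, limma adjusted p = 0.281). Zfp953 had 5.29, 4.51 and 5.38 in controls and 1.504, 1.10 and 0.648 in K36M FGOs, with a log2 fold change of -1.56 (standard error 0.32, limma adjusted p = 0.281). The groups were separate in both. Zfp956 was the exception, at 51.2, 52.7 and 49.8 in controls and 56.5, 81.9 and 103 in K36M FGOs. The lower genes lay on chromosomes 2, 4, 7, 13 and 17, some in arrays and others, such as Zfp953, alone. With a minimum average TPM of 5 the lower count was 5 of 32, and without control replicate 3 it was 8 of 52.

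**Figure D3:**
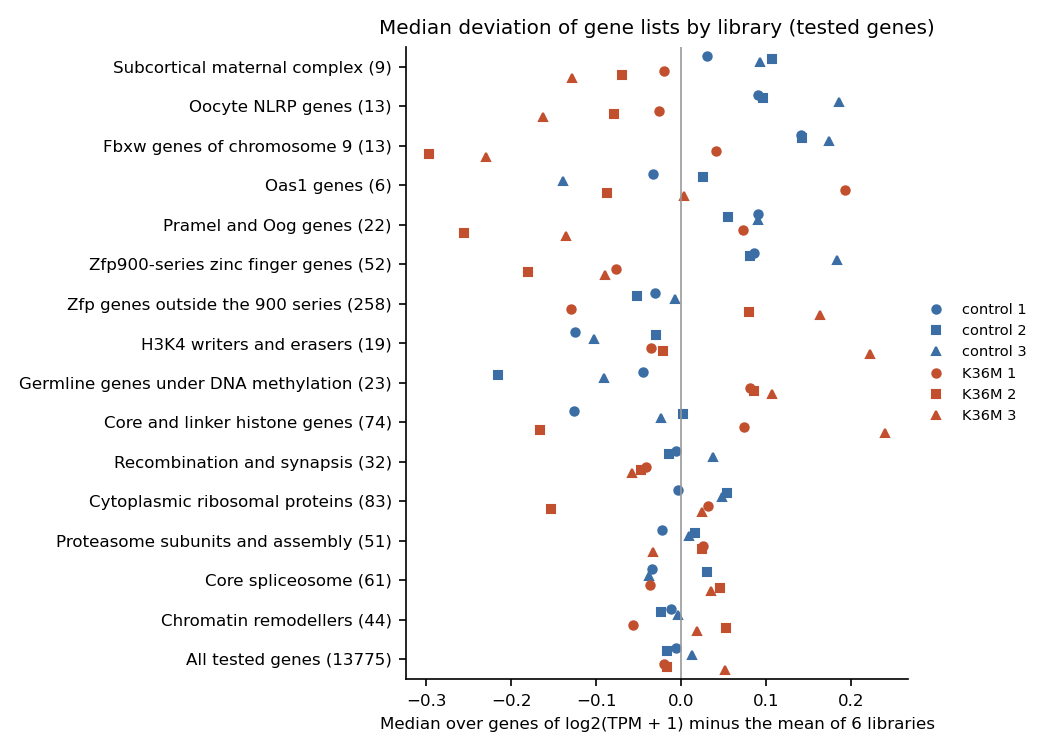
Median over the tested genes of each list (number in parentheses) of log2(TPM + 1) minus the mean of the 6 libraries, for each control (blue) and K36M (red) library. The Fbxw, Nlrp, subcortical maternal complex, Zfp900-series and recombination lists have all K36M medians below all control medians, although 18 of the 32 recombination genes have a positive log2 fold change with a median of 0.03; the germline genes under DNA methylation have them above, and all tested genes lie between -0.02 and 0.05.

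Histone-modifying enzymes included few lower members. Of 19 enzymes and cofactors that write or erase H3K4 methylation 5 were higher (26.3%, against 5.15% of all genes) and none was lower, with a median log2 fold change of 0.18. Setd1b had a TPM of 84.0, 76.4 and 75.2 in controls and 84.7, 139 and 136 in K36M FGOs, with a log2 fold change of 0.57 (standard error 0.18, limma adjusted p = 0.396). Setd1a, its paralogue, had 146, 147 and 149.96 in controls and 155, 211 and 213 in K36M FGOs, with a log2 fold change of 0.37 (standard error 0.13, limma adjusted p = 0.405). In both, replicate 1 was next to the controls and replicates 2 and 3 were well above. Without replicate 1 the limma adjusted p was 0.0205 for Setd1b and 0.0246 for Setd1a. Leaving out the library next to the controls lowers such p-values by choice, and 2.17% of all genes passed 0.05 in that fit. The other higher members were Kmt2d, Wdr5, a subunit shared by the H3K4 methyltransferase complexes, and the demethylase gene Kdm5c, whereas Kmt2b, the main H3K4 methyltransferase of the oocyte, had a TPM of 124, 119 and 107 in controls and 122, 113 and 119 in K36M FGOs, with overlapping groups. The 5 higher members all have a GC content above the median of the tested genes, and the higher count was 2 after centring on GC content and also 2 without control replicate 3, without K36M replicate 2 or without K36M replicate 3, and it was 3 without control replicate 1 or with no mean-variance trend.

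Among the 15 tested writers and erasers of H3K36 methylation 2 were higher and none lower, and the same counts, 2 and 0, held for 21 tested readers of this mark. Setd2, the enzyme gene behind H3K36me3, had a TPM of 263, 231 and 243 in controls and 239, 357 and 377 in K36M FGOs, so that its groups overlapped through replicate 1. Over the 6 libraries its log2 fold change was 0.37 (limma adjusted p = 0.463). Without replicate 1 the log2 fold change was 0.58 (limma adjusted p = 0.024), with the limit given above for that fit. Zmynd11, a reader of H3K36me3 on H3.3, had 23.4, 23.6 and 25.8 in controls and 31.7, 37.1 and 33.2 in K36M FGOs, with a log2 fold change of 0.47 (standard error 0.14, limma adjusted p = 0.383). The DNA methylation list had 1 higher member of 17, Trim28, a corepressor that protects methylated imprints, and 1 lower, Dnmt1. The Trim28 groups overlapped, and after centring on GC content its log2 fold change was 0.18 (from 0.31) with an unadjusted limma p of 0.134. Dnmt1 had a TPM of 2374, 2512 and 2608 in controls and 1843, 1620.1 and 1757 in K36M FGOs, with a log2 fold change of -0.52 (standard error 0.07, limma adjusted p = 0.0944). Of 37 Polycomb genes 4 were higher (10.8%) and 1 lower, of 26 acetyltransferases and deacetylases 3 were higher (11.5%) and none lower, of 23 H3K9 enzymes and readers 2 and none, and of 44 chromatin remodellers none was higher and 2 were lower. Without K36M replicate 1, where 11.9% of all genes were higher, the higher counts were 5 for H3K36 writers and erasers, 8 for H3K36 readers, 2 for DNA methylation, 9 for Polycomb, 8 for acetyltransferases and deacetylases, 5 for H3K9 and 9 for remodellers.

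Germline genes whose promoters are commonly silenced by DNA methylation in other cells were higher more often than lower. Of 23 tested members 5 were higher and none lower, 17 had a positive log2 fold change, and the median was 0.15. Mael, a piRNA pathway gene, had a TPM of 56.8, 81.7 and 60.7 in controls and 105, 104 and 103 in K36M FGOs, with a log2 fold change of 0.66 (standard error 0.14, limma adjusted p = 0.306). The K36M libraries were close to each other and above all controls. Sycp1, Tex19.1, Xlr4a and Tuba3b were the other higher members, of which Tex19.1 and Tuba3b overlapped between the groups. The higher count was 6 after centring on GC content and 3 without control replicate 2. Tuba3b, a testis-type tubulin, is also 1 of 4 higher genes among 17 tubulins, which included no lower gene. The higher tubulin count was 1 after centring on GC content or without control replicate 3. It was 2 without control replicate 1 or K36M replicate 1.

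Genes of meiotic recombination and synapsis showed values in both directions. Of 32 tested 7 were lower and 2 higher, with a median log2 fold change of 0.03. Tex12, a central element of the synaptonemal complex, had a TPM of 33.3, 36.1 and 40.1 in controls and 69.0, 72.0 and 67.3 in K36M FGOs, with a log2 fold change of 0.91 (standard error 0.12, limma adjusted p = 0.0944), the smallest p of the 10 higher genes named by rank. In contrast Sycp2, a lateral element protein of the same complex, had 91.1, 75.9 and 97.3 in controls and 57.4, 63.1 and 48.3 in K36M FGOs, with a log2 fold change of -0.64 (standard error 0.14, limma adjusted p = 0.306). Both had separate groups. Rec114, Dmc1, Meiob, Majin, Terb1 and Ccnb1ip1 were the other lower members, and 3 of these 6 had a mean TPM below 5. The lower count was 3 without control replicate 1, 4 without K36M replicate 3 and 9 without K36M replicate 1, and the median ranged from -0.10 to 0.07 over the alternatives.

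H3f3b itself, the gene that carries the K36M allele, had a TPM of 307, 265 and 308 in controls and 399, 418 and 377 in K36M FGOs. All K36M libraries were above all controls, with a log2 fold change of 0.44 (standard error 0.09, limma adjusted p = 0.281), and the values do not separate the mutant from the wild-type allele. H3f3a, which encodes the same protein from chromosome 1, had 152, 151 and 156 in controls and 159, 131 and 143 in K36M FGOs, with overlapping groups. Over the 74 tested genes for core and linker histones 9 were higher and 3 lower, with a median log2 fold change of 0.17. H3c8, a canonical H3 gene in the chromosome 13 cluster, had 23.8, 15.2 and 19.97 in controls and 62.2, 43.0 and 38.9 in K36M FGOs, with a log2 fold change of 1.24 (standard error 0.22, limma adjusted p = 0.281). H4c6 of the same cluster was at 5.04, 1.98 and 3.32 in controls and 17.5, 10.1 and 15.3 in K36M FGOs, but H4c9 was at 59.4, 28.5 and 37.4 in controls and 19.4, 9.11 and 15.9 in K36M FGOs. Both had separate groups, in opposite directions. Canonical histone genes are short, GC-rich and near-identical in sequence, so reads can be split between copies, and the list's median was 0.03 after centring on GC content. Without K36M replicate 1, 13 histone genes were higher and 8 lower.

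Genes were also grouped by the chromatin marks measured by the study in FGOs. The gene lists were complete for chromosomes 1 to 6 in the copies used here, and only those chromosomes were considered. Of 1656 tested genes enriched in H3K36me3, the mark of transcribed gene bodies, 103 were higher (6.22%) and 47 lower (2.84%), with a median log2 fold change of 0.04. Of 1192 tested genes enriched in H3K36me2, 36 were higher (3.02%) and 95 lower (7.97%), with a median of -0.05. Of 318 tested genes listed as losing H3K36me2 in K36M FGOs, 15 were higher (4.72%) and 32 lower (10.1%), with a median of -0.15. Over all 4985 tested genes of these chromosomes the shares were 4.83% higher and 5.54% lower, with a median of 0.01. The lists differed in expression, with a median TPM of 61.4 for H3K36me3-enriched, 10.4 for H3K36me2-enriched and 5.60 for H3K36me2-loss genes, and the shares of higher and lower genes differed with the level as given above. The part of expression level in these differences was not tested. With a minimum average TPM of 5 the median of the loss genes was -0.05. Over the alternatives the H3K36me3-enriched genes had 49 to 277 higher and 22 to 105 lower members, the H3K36me2-enriched genes 17 to 93 and 53 to 117, and the loss genes 7 to 21 and 19 to 46. The highest of the H3K36me3 counts came without K36M replicate 1, where all genes of these chromosomes had 599 higher and 426 lower.

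Most lists of general cellular functions lay near the background. Of 83 cytoplasmic ribosomal protein genes 3 were higher and 7 lower, of 61 core spliceosome genes 4 and 2, of 51 proteasome genes 5 and 1, of 74 ribosome biogenesis genes 2 and 6, of 54 kinesin and dynein genes 0 and 2, and of 182 solute carriers 7 and 8. In the respiratory chain, 0 of 50 complex I genes were higher and 4 lower, with 38 negative values and a median of -0.08. The median deviation of complex I genes was 0.03, -0.15 and -0.04 in K36M replicates 1 to 3 and 0.03 to 0.11 in controls. Their median transcript length was 1082 nucleotides, against 3134 for all tested genes, and the part of length was not tested. Of 22 ATP synthase genes 0 were higher and 5 lower, among them Atp5mpl (log2 fold change -0.34), but 11 values were positive and 11 negative, with a median of -0.002. Insulin, PI3K and mTOR genes had 6 higher and 1 lower of 42, and Wnt genes 1 and 0 of 31. The highest-ranked of these were the kinase gene Akt1 (log2 fold change 0.31) and Axin2, a feedback inhibitor of Wnt signalling (log2 fold change 0.41). After centring on GC content Akt1 had a log2 fold change of 0.17 and an unadjusted limma p of 0.116. Imprinted genes had 1 higher and 0 lower of 54. Of 92 lists with at least 5 tested genes, 10 had a lower share above 3 times that of all genes and 3 had such a higher share, with the lists partly overlapping and many of their counts moving with the settings (for ATP synthase, for example, 1 lower gene without control replicate 1, and for ribosome biogenesis 7 higher and 16 lower without K36M replicate 1). The first were the lists of oocyte clusters, oocyte Nlrp genes, the subcortical maternal complex, Pramel and Oog genes, the zona pellucida, Zfp900-series genes, recombination and synapsis, ATP synthase, vomeronasal receptors (7 tested) and defensins (6 tested), and the second were the H3K4 enzymes, germline genes under DNA methylation and tubulins.

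Most olfactory receptor genes were below the level for testing. Of 1133 listed, 38 were tested, 4 of these were lower and none was higher, and the median log2 fold change was -0.23. Predicted genes named Gm had 57 lower and 16 higher of 595, with a median of -0.11, and Riken clones 45 and 21 of 592. By RefSeq type 73 of 952 long noncoding RNA genes were lower (7.67%) and 30 higher (3.15%), whereas protein-coding genes were balanced, with 648 higher and 632 lower of 12318. The types differed in level, with a median TPM of 4.54 for long noncoding RNA genes and 24.5 for protein-coding genes. Over all genes between a TPM of 2 and 5, 5.85% were lower and 2.23% higher, and the part of the level was not tested.

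The shares of higher and lower genes differed with the GC content and length of the transcripts. The part of GC content and length in the counts above was not tested beyond the centring given here. Among the tested genes, 98.4% could be matched to a GENCODE transcript. In the decile with the lowest GC content (median 39.5%) 23 genes were higher and 129 lower of 1356, with a median log2 fold change of -0.06, and in the highest decile (59.6%) 131 were higher and 25 lower, with a median of 0.13. At high GC content the library furthest above the others was K36M replicate 3, whose median deviation from the mean of the 6 libraries was 0.20 in the highest decile, against -0.0061 and -0.0046 in replicates 1 and 2. In the decile of the shortest transcripts (median 661 nucleotides) 73 genes were higher and 133 lower, and K36M replicate 2 had a median deviation of -0.22 there. K36M replicates 1 and 3 were at 0.04 and -0.02 in that decile and the controls at 0.03 to 0.06, so the groups were not separate. Without K36M replicate 1 the counts were 102 higher and 184 lower at the lowest GC content, 233 and 49 at the highest, and 90 and 196 in the shortest transcripts. The Fbxw genes of chromosome 9 had a median GC content of 44.1%, the oocyte Nlrp genes 42.2% and the Zfp900-series genes 38.5%, against 49.2% for all tested genes, and the H3K4 enzymes 50.6% and histone genes 57.5%. When every library was centred on its trend with GC content, the lower counts were 8 of 13 Fbxw, 5 of 13 Nlrp, 3 of 9 subcortical maternal complex, 3 of 22 Pramel and Oog and 12 of 52 Zfp900-series genes, and 38 of the 273 most abundant genes.

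**Figure D4:**
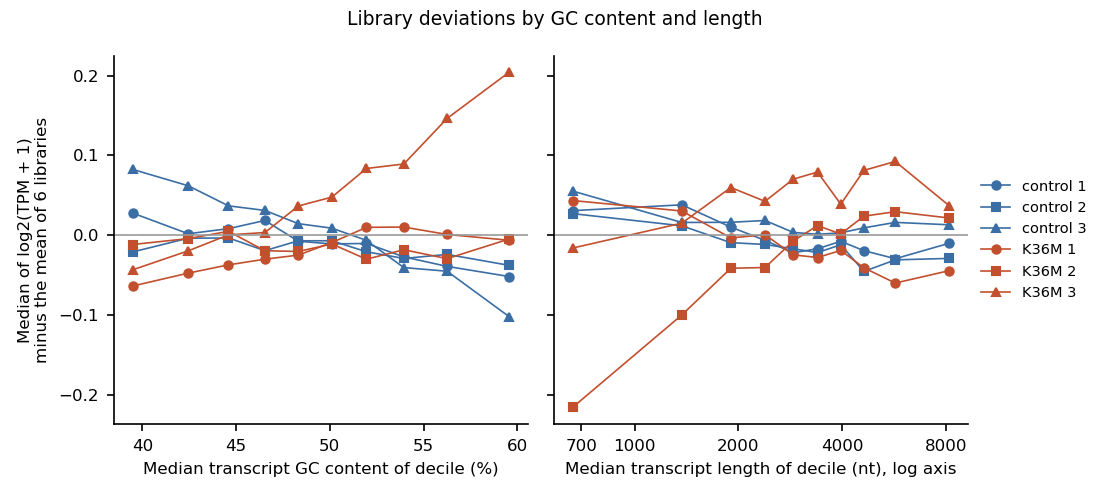
Median deviation of each library from the mean of the 6 libraries, in log2(TPM + 1), over deciles of transcript GC content (left) and length (right, log axis), for controls (blue) and K36M (red). K36M replicate 3 climbs to 0.20 at the highest GC content, and K36M replicate 2 drops to -0.22 in the shortest transcripts.

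The genes with the smallest unadjusted p in each direction, among those with an average TPM of 5 or more and separate groups, had varied functions. On the lower side, Srp68, a subunit of the signal recognition particle, had a TPM of 42.4, 44.1 and 50.2 in controls and 21.6, 15.1 and 16.8 in K36M FGOs, with a log2 fold change of -1.32 (standard error 0.17, limma adjusted p = 0.0944). Pla2g4c, an oocyte-enriched cytosolic phospholipase A, had 1419, 1494 and 1492 in controls and 1096, 1010.1 and 942 in K36M FGOs, with a log2 fold change of -0.53 (standard error 0.07, limma adjusted p = 0.0944). The splicing helicase gene Aqr, Mtus1, Zfp735, Asb12 and Lrmda completed this side together with Cdo1, Dnmt1 and Mir6975. Mir6975 is a microRNA hairpin.

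On the higher side, Zc3h6, a CCCH zinc finger gene, had a TPM of 348, 333 and 354 in controls and 449.8, 587 and 494 in K36M FGOs, with a log2 fold change of 0.55 (standard error 0.10, limma adjusted p = 0.281). Dnajb1, a heat shock cochaperone, had 133, 128 and 141 in controls and 173, 195 and 207 in K36M FGOs, with a log2 fold change of 0.51 (standard error 0.10, limma adjusted p = 0.281). Aldh1a2, a retinoic acid synthesis enzyme, had 41.2, 50.9 and 44.3 in controls and 64.2, 90.3 and 91.7 in K36M FGOs. Hmgn3, Mfhas1 and Mir8104 were the remaining members beside Tex12, H3c8, H4c6 and H3f3b.

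**Figure D5:**
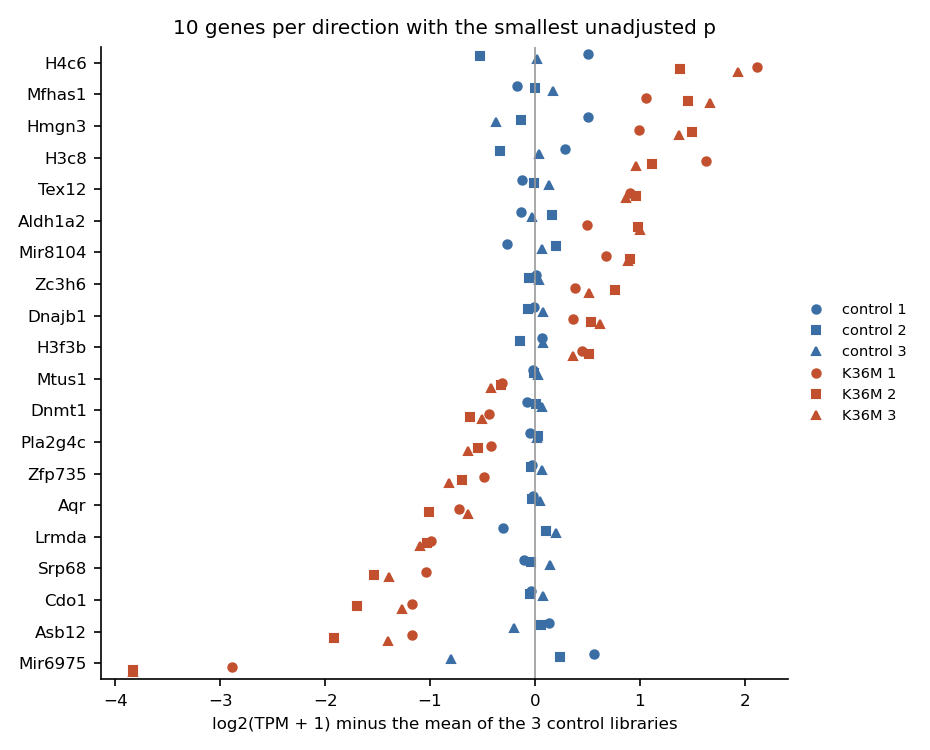
Value of each library, as log2(TPM + 1) minus the mean of the 3 controls, for the 10 genes per direction with the smallest unadjusted p (blue, controls; red, K36M). By choice the groups do not overlap in any of the 20 genes; Cdo1, the gene past the adjusted threshold, lies at a log2 fold change of -1.38.

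Genes at or near a TPM of 0 in all libraries of 1 group had low values in the other. Cthrc1, which encodes a secreted collagen triple helix repeat protein, was listed at 0 in all controls and at 3.02, 2.76 and 2.16 in K36M FGOs, and Prss47, a serine protease gene, was at 0, 0.0648 and 0 in controls and 1.66, 1.65 and 2.17 in K36M FGOs. In the other direction Muc15, a membrane mucin gene, was at 0.862, 1.23 and 1.76 in controls and at 0, 0 and 0.0888 in K36M FGOs. The others chosen by the same rule were microRNA and small nucleolar RNA genes, Mir423, Mir7070 and Snord123 on the K36M side and Mir491, Mir7665, Mir6984 and Snora5c on the control side, whose lowest library in the expressing group was between a TPM of 0.551 and 1.04.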

How the data were processed

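Each of the 6 libraries was made from 5 pooled FGOs, and the authors trimmed reads with Trim Galore, aligned them with HISAT2, removed ribosomal RNA reads with bedtools, counted genes with featureCounts and deposited TPM values; the annotation, gene lengths and handling of reads shared between copies are not given in the sources used here. The table gives no read counts per gene, and the read totals listed by the study were not used here. Of 26214 genes, 21578 were above 0 in at least 1 library. Deposited TPM were transformed to log2(TPM + 1), genes averaging a TPM of 1 or more were kept, and K36M was compared with control in limma 3.58.1 (R 4.3.3) with a mean-variance trend, two-sided moderated tests and Benjamini-Hochberg adjustment at 0.05. On simulated data 36.6% of genes changed by a log2 of 1 and 82.2% of those changed by 2 were recovered among 13775 genes. The simulation changed 200 genes and drew each gene independently, with no deviation shared by the genes of a library. These rates are therefore not the power of the real comparison. GC content and length came from GENCODE M21 transcripts, and coordinates and promoters from RefSeq (GRCm38.p6). All per-sample columns were mapped to samples (0 unmapped).

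The members and lists were chosen with earlier results of these data known. Genes were named by rule: H3f3b, genes past the adjusted threshold, the 10 smallest unadjusted p per direction with an average TPM of 5 or more and separate groups, the member of each list with the smallest unadjusted p per direction, and genes below a TPM of 0.1 in 1 group; further list members were named after their values were seen. Same-numbered libraries correlated in their deviations by 0.03, 0.01 and 0.10, so the numbers were not taken as pairs. Alternatives covered the pseudocount, filters, scaling, the variance model, array weights, a replicate block and leaving out each library; GC and length centring was added after seeing the data. Lists were not tested as sets. The other 16 libraries of the table were not used here.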

Additional observations from a re-analysis of the deposited data

How the results depend on the processing

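Of 93 named genes tested, 85 kept the sign of their log2 fold change in every alternative. The 8 that turned in at least 1 (Cyp19a1, Fbxw21, Gdf9, Gja1, Kmt2b, Oas1e, Oosp2 and Tle6) had overlapping groups, and no log2 fold change over the 6 libraries is given for them. The replicate block left 0 genes past the adjusted threshold and gave 770 higher and 768 lower genes at an unadjusted p under 0.05. The causes of the following changes were not tested.

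The number of genes past the adjusted threshold in limma, 1 as reported, was 0 with a pseudocount of 0.1, 0 with all genes above 0, 0 with no mean-variance trend, 2 with GC centring, 3 with GC and length centring, 0 with GC centring and the replicate block, and 281 with GC centring without K36M replicate 1. Leaving out each library gave 0 to 300 (300 without K36M replicate 1). At an unadjusted p under 0.05, leaving out each library gave 948 to 2808 genes in all, 355 to 1638 higher and 462 to 1170 lower. GC centring without K36M replicate 1 gave 2807, with 1456 higher and 1351 lower, and array weights gave 1111 higher.

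With no mean-variance trend 6 genes of the Oosp, Omt2, Oas1 and Fbxw list, 3 Nlrp genes and 16 genes at a TPM of 500 or more were lower, and 3 H3K4 genes were higher. GC centring left 2 higher H3K4 genes, GC and length centring 3 and GC centring with the replicate block 3, and GC and length centring left 31 lower genes at a TPM of 500 or more. With a minimum average TPM of 5 the lower Zfp900-series count was 5. Leaving out each library gave 8 to 13 lower genes in the Oosp, Omt2, Oas1 and Fbxw list, 3 to 7 in the Nlrp list, 8 to 15 in the Zfp900 series, 27 to 76 at a TPM of 500 or more, 2 to 6 higher H3K4 genes and 3 to 6 higher germline genes under DNA methylation.

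With 3 libraries a group and TPM in place of counts, the counting error of low transcripts could not be separated from the spread between libraries.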
